A study of Rattus norvegicus with 6 samples.

Results

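The circadian clock genes Per1, Per2, Per3, Cry1, Cry2, Arntl, Clock, Nr1d1, Nr1d2 and Dbp were taken by symbol from the gene column of the count tables. All 10 were present among 18237 rows, and all 10 had enough counts to be among the 11726 genes tested. The data were RNA-seq gene counts of 6 libraries of cultured rat cells labelled NRVM, usually read as neonatal rat ventricular myocytes; the growth protocol names embryonic heart tissue as their origin. One group was given control siRNA (siNT, n = 3 libraries), the other an siRNA directed at the metallothionein gene Mt2 (siMt2, n = 3 libraries). The sources used here do not give strain, age, sex or genetic background of the animals. All cells were kept in DMEM with fetal bovine serum, and the protocol text shared by both groups also lists dexamethasone, isobutylmethylxanthine and insulin without stating that these cells received them. Serum, glucocorticoids such as dexamethasone and agents that raise cyclic AMP are known to reset the clock of cultured cells. No time of harvest, transfection or medium change is given, so differences in clock time and in siRNA between the groups cannot be told apart.

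The clock is a transcriptional feedback loop that runs in almost every cell, heart muscle cells included. Its positive limb is the dimer of CLOCK and ARNTL (also called BMAL1), which binds E-box sequences and switches on the Per, Cry, Nr1d and Dbp genes. PER and CRY proteins then inhibit the dimer, while the nuclear receptors NR1D1 and NR1D2 (REV-ERB alpha and beta) repress Arntl through ROR elements that the activator RORA also binds. DBP is an output factor that activates further genes through D-boxes. In a rhythmic tissue, Arntl peaks roughly opposite to Nr1d1 and Dbp, and the Per genes follow somewhat later.

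Promoter sequence was looked up for all members in RefSeq (build GRCr8) and found for 9 of 10, Arntl under its current symbol Bmal1. There was no entry for Cry1. The windows run from 250 bases before to 50 after an annotated start, and 11 of them belong to members because Clock and Nr1d1 have more than 1 start. Both strands were searched for the E-box CACGTG, the E'-box CACGTT, the D-box TTATGTAA, the ROR element core TAGGTCA or TGGGTCA, its variant TAGGTTA, and the cyclic AMP element TGACGTCA. None of these motifs contains another. Among 33469 windows of the same length over all genes, 6.42% hold the E-box, 4.83% the E'-box, 0.893% the D-box, 6.6% the ROR core, 1.61% its variant and 1.83% the cyclic AMP element. At least 1 of the motifs stands in 5 of the 11 member windows, against 20.3% of all windows. Shown here are the promoters of Arntl, Per2 and Nr1d1, the members that stand for the directions described below, with matches in capitals. Arntl (chr1:176766078-176766377, plus strand) holds the ROR core variant and the ROR core, Per2 (chr9:99496944-99497243, minus strand) a D-box and an E'-box, the first listed Nr1d1 start (chr10:84231763-84232062, minus strand) an E'-box on the opposite strand and the second (chr10:84229405-84229704, minus strand) an E-box.
Arntl: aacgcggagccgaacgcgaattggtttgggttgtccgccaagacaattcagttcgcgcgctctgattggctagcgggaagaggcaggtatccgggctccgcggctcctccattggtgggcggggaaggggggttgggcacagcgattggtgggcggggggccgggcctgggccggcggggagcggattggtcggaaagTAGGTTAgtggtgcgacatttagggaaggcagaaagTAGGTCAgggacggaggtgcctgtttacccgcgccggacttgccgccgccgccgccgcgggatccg
Per2: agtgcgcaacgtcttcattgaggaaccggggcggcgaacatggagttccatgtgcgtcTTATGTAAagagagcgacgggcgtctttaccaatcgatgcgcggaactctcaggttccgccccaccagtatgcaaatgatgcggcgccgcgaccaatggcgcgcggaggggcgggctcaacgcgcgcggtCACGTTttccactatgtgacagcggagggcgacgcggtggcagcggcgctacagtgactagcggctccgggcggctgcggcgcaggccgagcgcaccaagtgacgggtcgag
Nr1d1, first start: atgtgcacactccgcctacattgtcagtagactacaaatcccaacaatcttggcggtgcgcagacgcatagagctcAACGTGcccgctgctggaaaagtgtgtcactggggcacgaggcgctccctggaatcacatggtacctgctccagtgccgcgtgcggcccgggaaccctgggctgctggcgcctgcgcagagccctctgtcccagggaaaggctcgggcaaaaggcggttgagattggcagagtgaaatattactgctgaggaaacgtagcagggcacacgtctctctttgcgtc
Nr1d1, second start: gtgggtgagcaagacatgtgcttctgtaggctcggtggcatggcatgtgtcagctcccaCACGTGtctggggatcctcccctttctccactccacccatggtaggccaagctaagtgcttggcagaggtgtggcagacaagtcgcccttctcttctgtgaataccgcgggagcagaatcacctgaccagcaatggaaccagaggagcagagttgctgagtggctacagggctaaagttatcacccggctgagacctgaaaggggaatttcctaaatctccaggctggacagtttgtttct

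**Figure D1:**
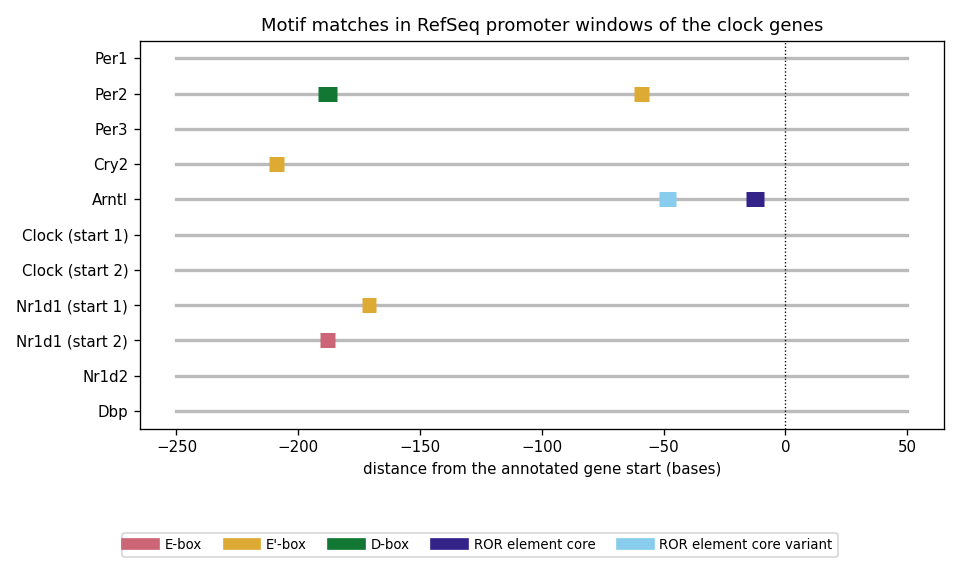
Motif matches in the promoter windows of the clock genes, drawn by distance in bases from the annotated start (dotted line). Each grey line is 1 window and each coloured block 1 match. Arntl carries the ROR core and its variant close to the start, Per2 a D-box and an E'-box, Cry2 and the first Nr1d1 start an E'-box, and the second Nr1d1 start an E-box; the other 6 windows hold none of the searched letters.

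Library totals ranged from 2859759 to 6817777 counts, and 3 counts, the upper limit for a gene with 0 counts, equalled 0.440 to 1.05 CPM (library-scaled counts). The targeted transcript, Mt2a, measured 90.7, 170 and 93.3 CPM with siNT against 70.7, 87.3 and 142 CPM with the siMt2 label (log2 fold change -0.28, SE 0.42, edgeR adjusted p = 0.631), so the label is not visible in the transcript, and siMt2 below always means the libraries carrying that label. The groups differed widely all the same, with 5971 of 11726 genes (50.9%) at an adjusted p under 0.05. With siMt2, 25.8% of all genes tested were higher and 25.1% lower, the shares against which the marker counts below stand. Defining heart muscle markers were almost absent: of 9 cardiomyocyte genes in the tables, which summed to 29.3 to 32.2 CPM in siNT and 51.3 to 63.7 CPM in siMt2 libraries, Tnnt2 alone was abundant enough to test, and Myh6, Actc1, Tnni3, Mybpc3, Myl7 and Nppb had between 2 and 9 counts over all libraries. The cells carried fibroblast markers at a summed 7444 to 7619 CPM in siNT and 9528 to 13519 CPM in siMt2 libraries (5 of 7 tested genes higher, 0 lower). Col1a1 was the largest part of that sum, at a mean of 4701 CPM in siNT and 7795 CPM in siMt2 libraries. Of the higher genes, Dcn and Lum were scarce. They had 50 and 51 counts over all libraries and averaged 0.639 and 0.403 CPM in siNT. Pdgfra had 2 counts in all. Smooth muscle markers summed to 2315 to 2354 and 4084 to 4175 CPM (4 of 5 higher, 1 lower). Skeletal myoblast markers summed to 28.0 to 31.9 and 48.2 to 54.6 CPM (2 of 3 tested genes higher, 1 lower): Des (1.84, edgeR adjusted p = 2.18e-06) and Myod1 (0.46, edgeR adjusted p = 0.00833) were higher and Myog lower (-1.47, edgeR adjusted p = 0.00239), while Myf6 had 2 counts in all. Endothelial markers reached at most 0.730 CPM, with only Tek listed. Leukocyte markers summed to 22.7 to 27.3 CPM in siNT and 14.2 to 17.3 CPM in siMt2 libraries, nearly all of it Cd14, with Ptprc at 2 counts. Adipocyte markers summed to 2.76 to 4.06 CPM in siNT and 0.584 to 2.13 CPM in siMt2 libraries, with Plin1 at 4 counts and Pparg at 6. Cd14 (-0.73) and Lipe (-1.28), the single tested gene of each of these lists, were lower with siMt2 (edgeR adjusted p = 4.45e-04 and 0.0395). Whether the shift in these markers bears on the clock genes was not tested, and in bulk RNA fewer cells of a type cannot be told apart from less RNA per cell. Nothing says that the replicates were separate cultures, so p-values describe the spread between these libraries only.

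The clock genes did not move as a block. Libraries labelled siMt2 had 2.31-fold less Nr1d1 and less Nr1d2 and Clock, but more Per2, Dbp and Arntl, while Per1 and Per3 passed no threshold. In edgeR's quasi-likelihood test 3 of 10 members were higher and 5 lower, where 25.8% of all genes tested were higher and 25.1% lower. The groups did not overlap for the same 8 members (3 higher, 5 lower), against 57.6% of all genes tested (28.9% higher, 28.7% lower). The median size of the change was 0.44 on the log2 scale for members and 0.33 for all genes tested. A larger change than that of Nr1d1 was found for 5.81% of all genes tested. This share was 15.2% for Per2, 18.9% for Nr1d2, 23.2% for Dbp and 30.8% for Clock. It was 47.0% for Arntl, 53.2% for Cry2, 85.1% for Per1 and 91.8% for Per3, with Cry1 between Arntl and Cry2. The changes of Arntl, Cry1 and Cry2 were thus near the median size of all genes tested. With 50.9% of all genes called, the number of calls says little about the clock, and the description below rests on sizes and directions.

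**Figure D2:**
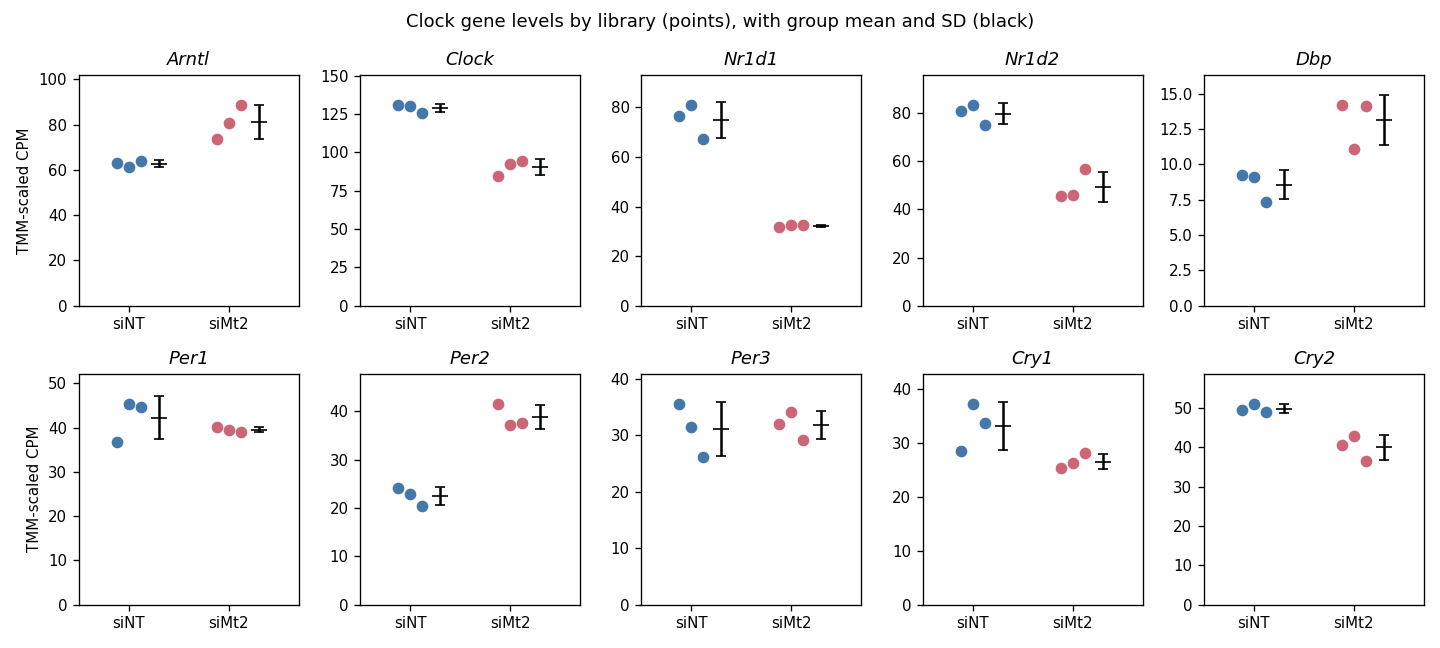
TMM-scaled CPM of the 10 clock genes in each library; each point is 1 library, and black bars give the group mean and SD (n = 3). Nr1d1, Nr1d2, Clock, Cry1 and Cry2 lie lower and Arntl, Per2 and Dbp higher in every siMt2 library than in any siNT library, whereas Per1 and Per3 overlap.

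The REV-ERB receptor genes, repressors of Arntl, showed the deepest falls. Nr1d1 measured 76.6, 81.0 and 67.1 CPM with siNT against 31.8, 32.6 and 32.4 CPM with siMt2. The siMt2 values were nearly identical (SD 0.416 CPM) and lay below all siNT values (mean 74.9 ± 7.10 and 32.3 ± 0.416 CPM, SD, n = 3). The log2 fold change was -1.21 (SE 0.10, edgeR adjusted p = 4.15e-09), or 0.432 times the siNT level with a 95% interval of 0.374 to 0.500, and 5.81% of all genes tested changed by more. Its paralog Nr1d2 stood at 80.9, 83.4 and 74.9 CPM against 45.7, 45.9 and 56.7 CPM, the last value, of siMt2 replicate 3, lying apart from the other two. The means were 79.8 ± 4.35 and 49.4 ± 6.30 CPM (SD, n = 3), with a log2 fold change of -0.71 (SE 0.10, edgeR adjusted p = 3.19e-06). Relative to Nr1d2, Nr1d1 was lower in every siMt2 library: their log2 ratio, not tested, was -0.08, -0.04 and -0.16 with siNT and -0.52, -0.49 and -0.81 with siMt2. In the RefSeq annotation Nr1d1 overlaps the thyroid hormone receptor gene Thra, which lies on the opposite strand, and the sources used here do not give the strand setting of the counting. Thra itself stood at 49.2 ± 3.45 and 48.0 ± 6.59 CPM (SD, n = 3; log2 fold change -0.03, SE 0.11, edgeR adjusted p = 0.861). Per2, Cry1, Cry2 and Clock also overlap other genes in that annotation. LOC102546693, which overlaps Cry2, had 14 counts in all, and LOC108352740, which overlaps Clock, had 42. The remaining overlapping genes of these members were not among the counted genes.

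The positive limb was split. Arntl, the rhythmic partner of the activating dimer, stood at 62.9, 61.2 and 64.1 CPM in siNT and at 73.7, 80.6 and 88.7 CPM in siMt2 libraries. The groups did not overlap (mean 62.7 ± 1.45 and 81.0 ± 7.52 CPM, SD, n = 3), and the log2 fold change was 0.35 (95% interval 0.17 to 0.53, SE 0.09, edgeR adjusted p = 0.00175). Clock, which encodes the other partner and usually cycles little, went the opposite way, from 131, 130 and 126 CPM to 84.7, 92.2 and 94.4 CPM. That was a fall by 0.52 on the log2 scale (SE 0.07, edgeR adjusted p = 1.70e-06), from a mean of 129 ± 2.75 to 90.4 ± 5.10 CPM (SD, n = 3). Within each library the log2 ratio of Arntl to Clock was -1.06, -1.09 and -0.97 with siNT and -0.20, -0.19 and -0.09 with siMt2. Of the alternative partners, Npas2, which can replace CLOCK, had 6 counts over all libraries, and Arntl2, a paralog of Arntl, had 11, of which 9 were in siNT replicate 3. Rora, the activator that competes with REV-ERB at ROR elements, rose from 14.1 ± 0.241 to 21.8 ± 2.72 CPM (SD, n = 3; log2 fold change 0.66, SE 0.15, edgeR adjusted p = 0.00121). Rorb had 2 counts in all.

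The Per genes, whose proteins carry the inhibition of the dimer, did not share a direction. Per2 measured 24.2, 22.9 and 20.5 CPM with siNT against 41.6, 37.1 and 37.7 CPM with siMt2. Every siMt2 value lay above every siNT value, with means of 22.6 ± 1.86 and 38.8 ± 2.44 CPM (SD, n = 3). The log2 fold change was 0.80 (95% interval 0.55 to 1.04, SE 0.12, edgeR adjusted p = 1.07e-05), or 1.74-fold. Per1, which glucocorticoids and cyclic AMP induce rapidly, stood at 36.7, 45.4 and 44.6 CPM against 40.1, 39.5 and 39.1 CPM. Its siMt2 values lay between the siNT values, and the interval of the ratio of siMt2 to siNT was 0.805 to 1.10 (edgeR adjusted p = 0.520). Per3 stood at 35.6, 31.5 and 26.1 CPM against 32.0, 34.1 and 29.2 CPM, also overlapping, with an interval of 0.860 to 1.24 for that ratio (edgeR adjusted p = 0.779). These intervals leave room for changes of up to 1.24-fold, smaller than that of Per2. The siNT replicates of Per3 varied by 15.4% of their mean and those of Per1 by 11.4%.

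Both cryptochrome genes were slightly lower. Cry2 stood at 49.5, 51.1 and 48.9 CPM in siNT and at 40.7, 42.8 and 36.6 CPM in siMt2 libraries, without overlap, a log2 fold change of -0.30 (SE 0.10, edgeR adjusted p = 0.0151). DESeq2 gave -0.32 with an adjusted p of 0.0732, the highest of 14 alternatives, the lowest being 0.0132. Cry1 stood at 28.5, 37.3 and 33.7 CPM against 25.3, 26.2 and 28.2 CPM; the lowest siNT value and the highest siMt2 value nearly touched. Its log2 fold change of -0.33 (SE 0.12, edgeR adjusted p = 0.0345) was lost under more alternatives than the call of any other member, with adjusted p from 0.0135 to 0.145 over all 14. Without siNT replicate 2 it was -0.25 (adjusted p = 0.145), without siNT replicate 3 -0.31 (0.104), without siMt2 replicate 1 -0.28 (0.143) and without siMt2 replicate 2 -0.32 (0.0753), all in edgeR. DESeq2 gave -0.33 (adjusted p = 0.143) and upper quartile scaling in edgeR -0.29 (0.0615).

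Dbp, the output factor, was the scarcest member, with 38 to 97 counts per library. It measured 9.21, 9.08 and 7.36 CPM with siNT against 14.2, 11.1 and 14.1 CPM with siMt2, without overlap. The means were 8.55 ± 1.04 and 13.1 ± 1.74 CPM (SD, n = 3), or a log2 fold change of 0.63 (95% interval 0.21 to 1.05, SE 0.20, edgeR adjusted p = 0.0126). It no longer passed without siNT replicate 3 (0.52, edgeR adjusted p = 0.0729), without siMt2 replicate 1 (0.55, edgeR adjusted p = 0.0740) and in DESeq2 (0.62, adjusted p = 0.0862), with the direction kept in each; over all 14 alternatives the adjusted p ran from 0.00835 to 0.0862. Of its relatives in the PAR-bZIP family, Tef stood at 47.9 ± 4.79 and 42.7 ± 3.76 CPM (SD, n = 3; log2 fold change -0.17, edgeR adjusted p = 0.199), and Hlf was not analysed here. Nfil3, which encodes a repressor acting at the same D-boxes, stood at 47.1 ± 3.99 and 44.1 ± 6.25 CPM (SD, n = 3; -0.09, edgeR adjusted p = 0.535).

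Further repressors of the loop were split as well. Ciart, which encodes a repressor of the dimer and is itself an E-box target, measured 5.42, 2.87 and 4.60 CPM with siNT against 7.74, 8.28 and 9.86 CPM with siMt2. Its groups did not overlap, and its log2 fold change was 0.95 (SE 0.27, edgeR adjusted p = 0.00620), from only 12 to 53 counts per library. Bhlhe40, whose protein (DEC1) competes for E-boxes, went from 174 ± 4.73 to 140 ± 8.59 CPM (SD, n = 3; -0.32, SE 0.06, edgeR adjusted p = 1.28e-04). Its paralog Bhlhe41 was too scarce to test, at 51 counts in all. The rises of Rora and Ciart and the fall of Bhlhe40 passed in all 14 alternatives.

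**Figure D3:**
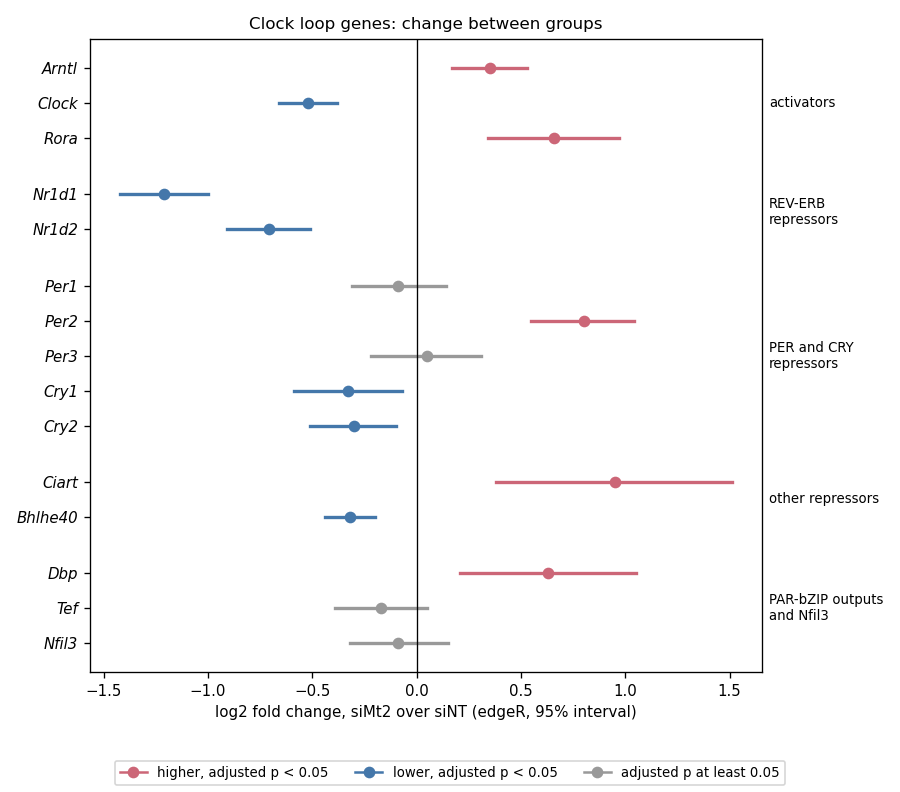
Log2 fold change (siMt2 over siNT) of the tested loop genes, grouped by role; points are edgeR estimates and lines their 95% intervals. The REV-ERB genes lie farthest to the left, at -1.21 and -0.71, while the activators, the PER and CRY genes and the other repressors each hold both rises and falls.

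Set against each other, the limbs did not move in opposite directions as wholes. Of the 7 negative limb genes, 1 was higher, 4 were lower and 2 passed no threshold (median log2 fold change -0.30). Of the 2 positive limb genes, 1 was higher and 1 lower (median -0.08), while the median of all genes tested was 0.00. Among all genes tested, 25.8% were higher and 25.1% lower. The mean log2 CPM of the negative limb was 5.44 ± 0.08 in siNT and 5.18 ± 0.01 in siMt2 libraries (SD, n = 3). It was lower in every siMt2 library than in any siNT library. The mean log2 CPM of the positive limb was 6.49 ± 0.01 and 6.42 ± 0.11, overlapping. The negative minus the positive limb came to -1.07, -0.96 and -1.13 with siNT and to -1.13, -1.25 and -1.34 with siMt2, a difference of -0.18 in which the closest values of the groups are equal at 2 decimals. As a score over chosen members it received no test.

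Single pairs of members that changed in opposite directions differed by more than the limb averages. That follows from the changes of the single genes given above. The ratio of 2 genes within a library does not depend on how libraries are scaled, and these pairs were chosen after their values were seen, so they are given without a test. The log2 ratio of Arntl to its repressor gene Nr1d1 was -0.28, -0.41 and -0.07 with siNT and 1.21, 1.31 and 1.45 with siMt2, a 2.98-fold difference. Per2 and Nr1d1, both driven by the dimer, parted by more: their log2 ratio was -1.66, -1.82 and -1.71 with siNT and 0.39, 0.19 and 0.22 with siMt2, a 3.98-fold difference. Dbp and Nr1d1, which usually peak close together, gave -3.06, -3.16 and -3.19 against -1.17, -1.55 and -1.20, a 3.55-fold difference. Arntl and Dbp, which usually peak at opposite times, both rose, and their log2 ratio overlapped between the groups at 2.88 ± 0.21 and 2.63 ± 0.24 (SD, n = 3).

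**Figure D4:**
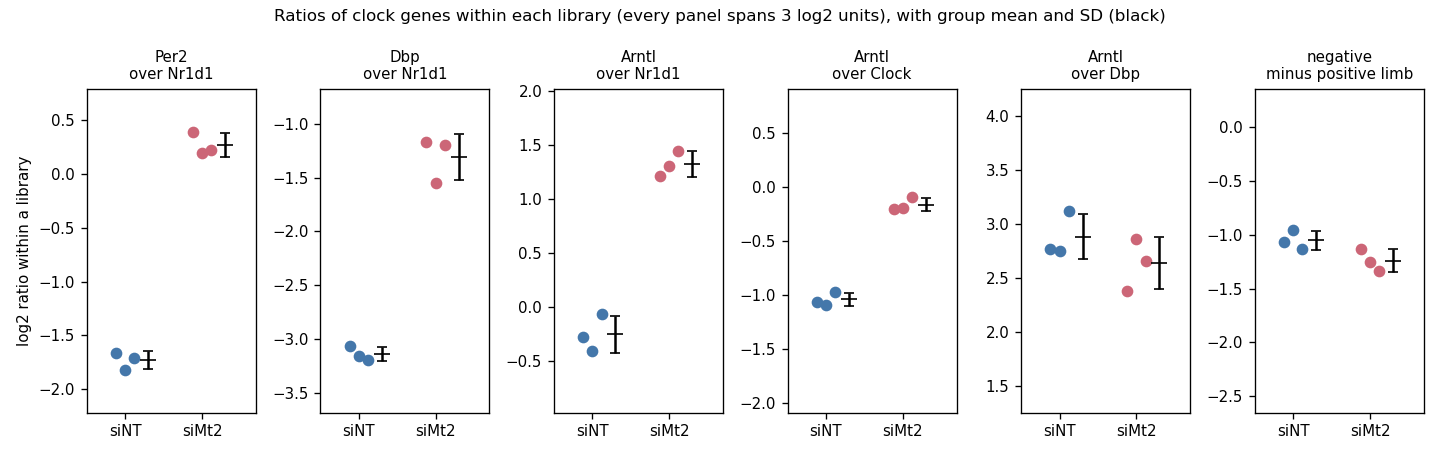
Log2 ratios of clock genes within each library, and the negative minus the positive limb; points are libraries and black bars the group mean and SD (n = 3), with every panel spanning the same number of log2 units. The ratios to Nr1d1 differ by 1.58 to 1.99 between group means, while Arntl over Dbp overlaps and the limb difference shifts by -0.18.

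Of 25 tested genes for enzymes and cofactors that set the lifetime or activity of clock proteins, 15 were lower and 1 higher (Prkaa1, named after its value was seen), where 25.1% of all genes tested were lower and 25.8% higher. Their median log2 fold change was -0.25, against 0.00 for all genes tested; Kmt2a was not analysed here. Kdm5a, a histone demethylase that coactivates the dimer, fell from 276 ± 9.79 to 175 ± 2.76 CPM (SD, n = 3; log2 fold change -0.66, edgeR adjusted p = 1.43e-09). Csnk1d, a casein kinase that phosphorylates PER proteins, fell from 197 ± 2.80 to 143 ± 1.99 CPM (-0.45, edgeR adjusted p = 5.71e-07). Its paralog Csnk1e, named after its value was seen, stood at 114 ± 6.44 and 115 ± 11.9 CPM (0.02, edgeR adjusted p = 0.836). Fbxw11, a ubiquitin ligase subunit that marks PER for destruction, fell from 150 ± 2.06 to 109 ± 5.92 CPM (-0.48, edgeR adjusted p = 1.86e-06). Prkaa2, a catalytic subunit of the energy sensor AMPK that phosphorylates CRY1, fell from 70.0 ± 9.92 to 41.9 ± 1.52 CPM (-0.74, edgeR adjusted p = 7.95e-06). Prkaa1, the other catalytic subunit gene of AMPK, rose from 104 ± 4.34 to 119 ± 1.63 CPM (0.19, edgeR adjusted p = 0.0165). Its call held in 10 of 14 alternatives. Apart from the falls of Kdm5a, Csnk1d, Fbxw11 and Prkaa2, the deepest in this list was the -0.48 of Btrc, also named after its value was seen.

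Of 8 tested outputs of the clock, 2 were higher and 1 lower. That is 37.5% called, below the 50.9% of all genes tested, so the count shows nothing particular to the outputs. Wee1, a kinase that holds back entry into mitosis and an E-box target, rose from 27.0 ± 2.59 to 53.4 ± 8.66 CPM (SD, n = 3; log2 fold change 0.97, SE 0.12, edgeR adjusted p = 1.47e-06). Por, the electron donor of cytochromes P450, rose (0.43, edgeR adjusted p = 0.00195). Klf10, a repressor gene induced by the dimer and by TGF-beta, fell from 226 ± 5.71 to 146 ± 3.84 CPM (-0.63, edgeR adjusted p = 5.75e-09). The NAD-producing enzyme gene Nampt, a classical E-box target, stood at 81.8 ± 3.41 and 79.3 ± 5.50 CPM (SD, n = 3; -0.06, edgeR adjusted p = 0.575). Klf9 (-0.23), Klf15 (0.20), Tspo (-0.20) and Pnp (0.05) did not pass either, with edgeR adjusted p between 0.0587 and 0.681. Pdk4 had 15 counts in all, and Avp was not analysed here. The replication-linked genes Timeless, a relative of the fly clock gene, and Tipin, its binding partner, were both higher (0.40 and 0.54, edgeR adjusted p = 0.00216 and 0.00249).

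Genes through which temperature, hormones and serum reach the clock held the largest changes of the wider lists. Of 17 tested, 8 were higher and 4 lower, where 25.8% of all genes tested were higher and 25.1% lower. Their median log2 fold change was 0.24, against 0.00 for all genes tested. The cold-inducible RNA-binding protein genes rose most. Rbm3 stood at 95.2, 109 and 97.3 CPM in siNT and at 362, 336 and 368 CPM in siMt2 libraries (log2 fold change 1.83, SE 0.06, edgeR adjusted p = 2.35e-15), and Cirbp, whose protein is known to bind Clock mRNA, at 18.4, 18.4 and 20.2 against 43.7, 48.0 and 44.4 CPM (1.24, SE 0.11, edgeR adjusted p = 1.78e-08). The groups of both genes lay far apart, whereas Clock itself was lower. Dusp1, a phosphatase gene that glucocorticoids and serum induce, fell from 106 ± 2.07 to 38.1 ± 3.82 CPM (SD, n = 3; -1.46, SE 0.09, edgeR adjusted p = 2.45e-11). Tsc22d3, a standard glucocorticoid target (GILZ), fell from 160 ± 2.41 to 119 ± 4.43 CPM (-0.43, edgeR adjusted p = 3.36e-06), while 2 further glucocorticoid targets named after their values were seen, Fkbp5 and Sgk1, rose (0.72 each, edgeR adjusted p = 1.83e-05 and 8.12e-06). The receptor gene Nr3c1, also named after its value was seen, stood at 227 ± 7.92 and 230 ± 10.5 CPM (SD, n = 3). Further inputs of this list, named after their values were seen, went both ways. Sik1 (1.05), Egr1 (0.74) and Srf (0.61) rose (edgeR adjusted p = 7.37e-04, 0.00452 and 1.30e-04). Nr4a1 (-0.93) and Crem (-0.66) fell (edgeR adjusted p = 9.77e-05 and 0.00237). Whether these inputs bear on the clock genes was not tested.

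**Figure D5:**
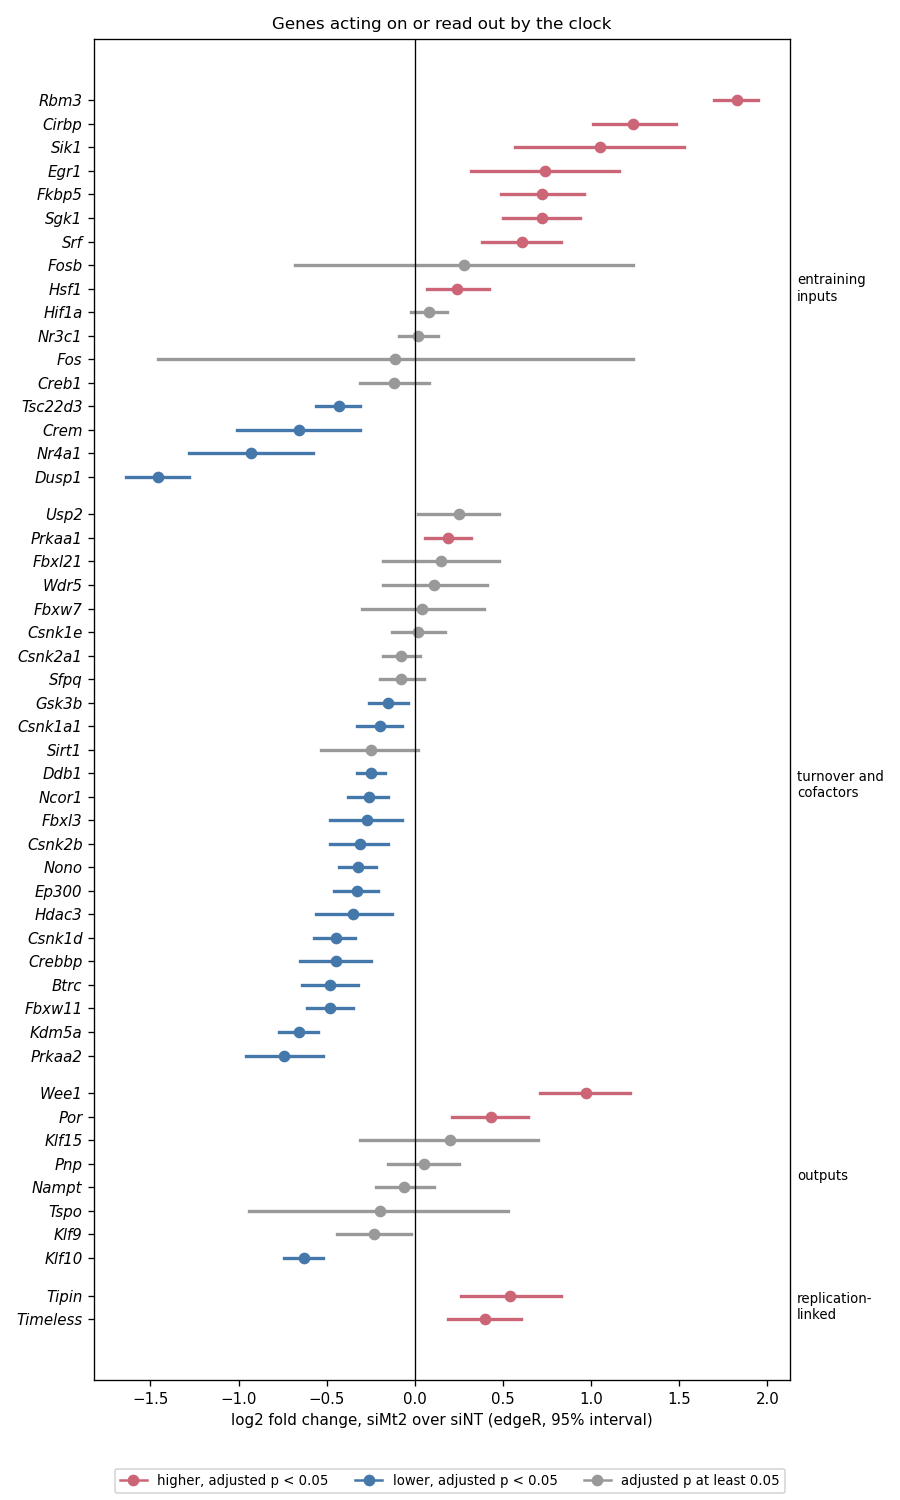
Log2 fold change (siMt2 over siNT) of tested genes that feed into the clock, modify its proteins, are read out by it or are linked to replication; points are edgeR estimates and lines 95% intervals. Rbm3 at 1.83 and Cirbp at 1.24 lead the inputs and Dusp1 at -1.46 ends them, while turnover and cofactor genes crowd just below 0.

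For each member that passed, the gene with the most similar pattern over the 6 libraries was found as the smallest root mean square distance of centred log2 CPM, among 10372 genes with a mean of at least 5 CPM. These were Robo1 for Arntl (0.0133), Mcu for Clock (0.0175), Tgfbr3 for Cry2 (0.0199), Ddx55 for Nr1d2 (0.0294) and Mospd1 for Cry1 (0.0299). RGD1311946 lay nearest to Per2 (0.0364), B4galt2 to Dbp (0.0436) and Gsto2 to Nr1d1 (0.0796). None of these is a clock gene of the lists used here, but those lists hold few of the 10372 genes, so this says little. A member with a large change lies far from most genes by the way the distance is built. Over all genes the median distance was 0.623 to Nr1d1 and 0.254 to Cry2. Nr1d1, with the largest change, also had the most distant nearest gene of the 8.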

How the data were processed

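The authors deposited 1 table of raw whole-number counts per gene for each library, without normalization. Per the submitters' processing notes, Trimmomatic 0.40, HISAT2 2.2.1, featureCounts, limma, DESeq2 and build rn6 were used; the sources used here do not give their order, settings or strand mode. The tables share 18237 rows; 25 names turned into dates by a spreadsheet were spelled in 2 ways and aligned by row, stayed in the fit and are not named. There were 0 columns without a sample, and groups came from sample titles.

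The fit used edgeR 4.0.16 in R 4.3.3: filterByExpr (minimum count 10), library sizes recomputed after that filter, TMM scaling, quasi-likelihood test with robust dispersion, two-sided, Benjamini-Hochberg adjustment over 11726 genes, threshold 0.05. The common biological coefficient of variation was 0.0665. Members were also tested by exact permutation (two-sided, 20 assignments); the 8 members that were called each gave p = 0.1, the smallest possible, and Per1 and Per3 gave exact p = 0.4 and 0.8. The procedure was also run on simulated counts in which few genes changed. That run cannot show how it performs where, as here, 50.9% of genes are called. The members and gene lists were chosen with earlier results of these data known. Named are all members, all genes of the loop, paralog and output lists, and the 4 smallest adjusted p of the turnover and input lists; others are marked as named after their values were seen. Median chi-square between libraries was 1.57 to 2.23 times the counting expectation within groups, so none was taken as a repeat, and 7.99 to 12.9 across groups. Alternatives were 3 other scalings, 2 other filters, the replicate block, DESeq2 1.42.0, voom from limma 3.58.1, and dropping each library once. A first fit kept library sizes as before the filter; recomputed sizes were adopted after its results were seen, and it is kept as an added alternative. Counts over lists include genes whose own values are not reported here or drawn.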

Additional observations from a re-analysis of the deposited data

How the results depend on the processing

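Of 140 comparisons of a member's log2 fold change with an alternative, 129 kept direction and side of the threshold, 10 kept only the direction and 1 reversed. The reversal was Per3, not called in any setting, which leaving out 1 library moved between -0.08 (without siNT replicate 3) and 0.16. Per2, Arntl, Clock, Nr1d1 and Nr1d2 passed in all 14 alternatives. The lost calls were those of Cry1 (6), Dbp (3) and Cry2 (1); DESeq2 therefore called 3 members lower in place of 5, and 2 higher in place of 3. The cause was not tested. Leaving out 1 library gave 2 to 3 members higher and 4 to 5 lower, 13 to 16 and 17 to 23 genes of the wider lists, and a limb difference of -0.24 to -0.13. The titles number the replicates 1 to 3 in both groups, but same-numbered libraries did not deviate together (correlations -0.001, -0.058 and 0.025), so the numbers were not taken as pairs; the replicate block called 3 members higher, 5 lower, and 2968 and 2929 of all genes. With library sizes from before the filter, an alternative added after seeing the data, all 10 members kept direction and side of the threshold, and 5970 in place of 5971 genes were called. Of 36 wider genes called, 30 passed under all alternatives. Of 21 not called, 6 passed under at least 1 alternative. Among them was Klf9, which stayed without a call in 10 of 14 and reached an edgeR adjusted p of 0.00446 without siMt2 replicate 3. No scaling moved the median of all genes beyond 0.0390. Among the members, Dbp had the largest counting error of its smallest count, 16.2%; in the wider lists Ciart had 28.9%, and Fosb and Fos, neither of them called, 44.7% and 100%.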

Other observations

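Beside the rise of the cold-inducible genes Rbm3 and Cirbp, 2 heat shock genes named after their values were seen were lower: Hspa8, the constitutive Hsp70, at 1653 and 641 CPM on average (log2 fold change -1.37, edgeR adjusted p = 2.60e-16) and Hsph1 at 759 and 337 CPM (-1.18, edgeR adjusted p = 3.38e-14). The heat shock factor gene Hsf1, also named after its value was seen, was at 59.9 ± 0.766 and 70.9 ± 5.26 CPM (SD, n = 3). Its log2 fold change was 0.24 (edgeR adjusted p = 0.0217), a call that held in 9 of 14 alternatives.

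Within the wider lists, 2 genes without a call, named after their values were seen, had 1 low value in siMt2 replicate 3, the shallowest library. Tspo stood at 40.6, 34.3 and 15.8 CPM in the siMt2 libraries. Fos had 18, 32 and 1 counts in them.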
